A study of Homo sapiens with 16 samples.

Results

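The response to dihydrotestosterone (DHT) was measured in enzalutamide-adapted prostate cancer cells while the drug stayed in the medium. The comparison set the 2 libraries of Ver cells given 1 nM DHT plus 1 µM enzalutamide against the 2 libraries of Ver cells given 1 µM enzalutamide alone, 4 of the 16 libraries in the series, chosen by their source labels. Both sides carried the drug, so that the difference between them is the addition of DHT. All 22553 genes with enough counts were tested.

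DHT is the main androgen of the prostate. It binds a nuclear receptor that moves onto DNA and raises or lowers the transcription of prostate genes. Enzalutamide is an antiandrogen that competes with DHT for that receptor, so that DHT given with the drug reports how much of the androgen program remains reachable. Androgens in prostate cells are known to raise secretory proteins, lipid synthesis and the protein-folding machinery of the endoplasmic reticulum.

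VCaP is an established prostate cancer cell line that carries the TMPRSS2-ERG gene fusion, which places the ETS factor ERG under an androgen-driven promoter. The Ver line was derived from VCaP by 4 months of culture with 1 µM enzalutamide, and the Vc line by the same time with ethanol as the solvent control. Before treatment all cells were deprived of steroids for 48 h or more, with charcoal-stripped serum in a medium lacking phenol red, and each treatment lasted 24 h. In each line 2 libraries were made from untreated control cells, 2 after 1 nM DHT, 2 after 1 µM enzalutamide and 2 after both compounds. Polyadenylated RNA was sequenced. The labels do not say whether replicates were separate cultures or whether more than 1 long-term culture of each line existed, so p-values measure the spread between these samples, which may be technical. The library labels end in L008 for every Vc sample and in L002 for every Ver sample, so that the line and whatever this suffix stands for cannot be told apart in any comparison of Ver with Vc.

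Gene counts per library ran from 8155244 to 13273523, and the 4 libraries compared here held between 8155244 and 10345631. Shares of reads are taken over those assigned to a gene, to no annotated feature or as ambiguous. Reads with no feature made up 48.3 and 49.2% in the enzalutamide libraries and 45.9 and 45.0% in the libraries with both compounds. That share therefore moved with DHT, and its part in the results was not tested. Levels are given as counts-per-million values (CPM), which are not corrected for gene length. Log2 changes are given with their standard error (SE). A gene was called when its p-value from edgeR's quasi-likelihood test, adjusted by the Benjamini-Hochberg method over all 22553 genes, was under 0.05.

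The libraries carried the markers of their label. All 10 luminal prostate markers had counts, with a summed level of 11000 and 11290 CPM in the enzalutamide libraries and between 11150 and 11210 CPM with both compounds. The sum hides changes in both directions, as 7 of the 10 were called higher with DHT and 1 lower. Over all genes 14.7% were called higher and 12.8% lower. Of 4 basal markers KRT5 was at 0, and the 4 summed to at most 3.46 CPM. The 7 immune markers, with CD68 at 0 among them, summed to at most 1.73 CPM. Of 9 stromal and endothelial markers COL3A1 and CDH5 were at 0. The summed stromal level fell from between 77.9 and 84.8 CPM to between 20.3 and 30.7 CPM, most of it LUM, which encodes the matrix proteoglycan lumican. In bulk RNA, fewer cells of a type and less RNA per cell cannot be told apart.

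The 2 libraries given both compounds differed from each other along the DHT response. Of the 1438 genes that DHT raised at least 2-fold without the drug, 986 (68.6%) were higher in the second of these libraries than in the first. Of the 2468 genes that DHT lowered at least 2-fold, 1012 (41.0%) were higher in the second. The corresponding shares in the enzalutamide libraries were 46.5 and 48.8%. On the first principal component of the 8 Ver libraries, which held 71.0% of the variance, the libraries with both compounds scored 8.32 and 14.2. The enzalutamide libraries scored -37.5 and -37.1, the control libraries -30.1 and -31.1, and the DHT libraries 56.4 and 56.9. The second component, with 9.17% of the variance, gave the libraries with both compounds -23.7 and -20.7 and all others scores between -1.30 and 14.2.

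DHT changed 6209 of 22553 genes while enzalutamide was present (27.5%). Of these, 3321 rose (14.7%) and 2888 fell (12.8%). A change of at least 2-fold was called for 1424 genes (6.31%), of which 573 rose (2.54%) and 851 fell (3.77%). Without a test, both DHT libraries lay above both enzalutamide libraries for 29.1% of genes and below them for 30.2%. The same DHT dose without the drug changed 9936 genes in Ver cells (44.1%), with 4772 that rose (21.2%) and 5164 that fell (22.9%). Of these, 3906 changed at least 2-fold (17.3%), with 1438 that rose (6.38%) and 2468 that fell (10.9%). The comparisons with and without the drug share no library.

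Most genes that moved under the drug moved the same way without it. Of the genes DHT raised under enzalutamide, 2634 (79.3%) were also raised without it, which is 55.2% of those raised without the drug. Of the genes lowered under enzalutamide, 2253 (78.0%) were also lowered without it, which is 43.6% of those lowered without the drug. Changes were usually smaller with the drug. Among the 3906 genes that DHT alone changed at least 2-fold, the median ratio of the log2 change with the drug to that without it was 45.3% (quartiles 22.7 and 66.8%). The median was 54.9% for the 1438 induced genes and 40.6% for the 2468 repressed genes. The share for genes changed at least 4-fold was 39.5%. These ratios carry no test, and the genes were chosen by the value in their denominator. The difference between the responses, tested as an interaction, was called for 3767 genes (16.7%), higher with the drug for 2079 (9.22%) and lower for 1688 (7.48%). The response with the drug was lower for 1514 genes that rose without it and higher for 1838 that fell without it. It was higher for 44 genes that rose without the drug and lower for 18 that fell.

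**Figure D1:**
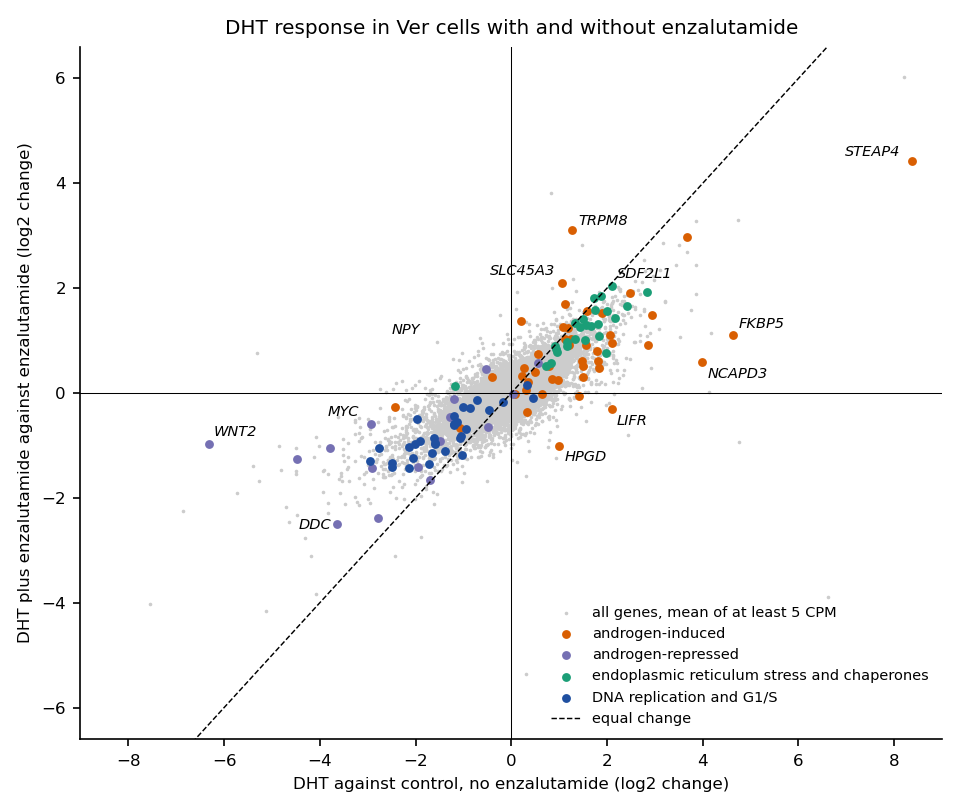
Each point is a gene with a mean of at least 5 CPM over the 8 Ver libraries, placed by its log2 change with DHT without enzalutamide (x axis) and with it (y axis); coloured points belong to 4 gene lists and the dashed line marks equal changes. FKBP5 (4.63 and 1.11) and NCAPD3 (3.98 and 0.59) lie far below the line, TRPM8 (1.28 and 3.11) above it, and SDF2L1 (2.104 and 2.05) on it.

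Genes known to be induced by androgen rose under the drug, to very different degrees. Of 47 tested members of the list, 35 rose and 4 fell, where 14.7% of all genes rose and 12.8% fell. The median log2 change was 0.61 against -0.01 over all genes. Without the drug 42 rose and 3 fell, with a median of 1.20. The difference between the responses was called for 32 members, lower with the drug for 24 and higher for 8. Among all genes it was called lower for 7.48% and higher for 9.22%.

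FKBP5 encodes a co-chaperone of steroid receptors and is a standard androgen readout (chr6:35573585-35728583, minus strand, GRCh38). Its level was 61.4 and 60.5 CPM with enzalutamide and 114 and 149 CPM with both compounds. The libraries with DHT were the higher pair, and they differed between themselves by more than the other pair. The log2 change was 1.11 (SE 0.08, n = 2 libraries a group, adjusted p = 1.92e-12 by edgeR). With DHT alone FKBP5 reached 1711 and 1845 CPM from 69.0 and 74.1 CPM, a log2 change of 4.63 (SE 0.08). The change with the drug was 24.0% of that, and the difference of -3.52 was called (adjusted p = 5.13e-21 by edgeR).

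NCAPD3, a subunit of the condensin II complex that compacts chromosomes, showed the same pattern to a greater degree (chr11:134150119-134225454, minus strand). Its level was 90.4 and 97.9 CPM with enzalutamide and 122 and 162 CPM with both compounds. The log2 change was 0.59 (SE 0.09) under the drug and 3.98 (SE 0.08) without it, so that 14.8% remained. STEAP4, a metalloreductase of the cell surface, went from 0.345 and 0.272 CPM to 5.34 and 8.21 CPM. That is a log2 change of 4.42 (SE 0.60) against 8.36 (SE 0.65) without the drug. Few counts stood behind its enzalutamide level.

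TMPRSS2 encodes the androgen-driven serine protease whose promoter is fused to ERG in VCaP cells (chr21:41464551-41531116, minus strand). It had 109 and 121 CPM with enzalutamide and 206 and 242 CPM with both compounds, a log2 change of 0.96 (SE 0.06) against 2.11 (SE 0.05) without the drug. ERG (chr21:38380027-38661780, minus strand) rose from 150 and 153 CPM to 343 and 403 CPM, by 1.30 (SE 0.05) against 1.79 (SE 0.05). Smaller shares of the response without the drug were seen for TPD52 (0.48 against 1.83), NDRG1 (0.61 against 1.82), ELL2 (0.60 against 1.47) and ZBTB16 (0.52 against 1.497). For all 6 of these genes the difference was called.

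KLK2, KLK3 and KLK4, which encode kallikreins, secreted serine proteases of the prostate, rose both with and without the drug. KLK3, which encodes prostate-specific antigen (chr19:50854915-50860764, plus strand), went from 35.4 and 31.9 CPM to 84.6 and 74.6 CPM, with both DHT libraries above both others. Its log2 change was 1.25 (SE 0.10) with the drug and 1.20 (SE 0.09) without it, and the difference of 0.05 (SE 0.13) had an adjusted p of 0.862 by edgeR. KLK2 (chr19:50861568-50880567, plus strand) rose from 2040 and 2031 CPM to 4795 and 4892 CPM, by 1.25 (SE 0.04) against 1.08 (SE 0.04). That difference of 0.17 was called (adjusted p = 0.0317 by edgeR). KLK4 rose by 0.92 against 1.20. KLK2 and KLK3 are close paralogs, and reads that fit both could be counted for either or for neither.

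The 250 bases before the RefSeq start of KLK3 (GRCh38.p14, chr19:50854665-50854914, plus strand, no annotated exon) are shown because this gene is the best known androgen target of the prostate. Capitals mark an AGAACA half-site, the core letters of the hormone response element, which begins 170 bases before the start.
KLK3: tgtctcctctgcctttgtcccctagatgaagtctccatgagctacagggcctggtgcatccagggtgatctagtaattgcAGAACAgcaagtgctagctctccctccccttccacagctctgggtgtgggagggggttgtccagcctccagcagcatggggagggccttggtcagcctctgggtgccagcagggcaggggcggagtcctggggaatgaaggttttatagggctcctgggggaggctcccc
The AGAACA letters, searched on both strands, were in this window of 5 of the 36 androgen-induced genes with a promoter in the RefSeq table (13.9%) and of 4046 of all 27305 genes (14.8%). The 2 shares are close, and a match is a description of letters only.

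A few androgen-induced genes rose more under the drug than without it. SLC45A3, a prostate transporter also called prostein (chr1:205657851-205680459, minus strand), went from 266 and 281 CPM to 1149 and 1195 CPM. Its log2 change was 2.099 (SE 0.05) against 1.05 (SE 0.05) without the drug, a called difference of 1.05 (adjusted p = 7.38e-29 by edgeR). The level with both compounds lay above the 1044 and 984 CPM of the libraries with DHT alone, and the level with enzalutamide lay below the 464 and 513 CPM of the control libraries.

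TRPM8, the cold-sensing calcium channel of prostate epithelium (chr2:233917398-234019522, plus strand), went from 9.20 and 7.44 CPM to 71.9 and 70.4 CPM. The log2 change was 3.11 (SE 0.12) with the drug and 1.28 (SE 0.09) without it, where levels were 22.2 and 18.5 CPM before and 45.8 and 52.7 CPM after DHT. As for SLC45A3, the starting level with enzalutamide lay below both controls and the level with both compounds above both DHT libraries. PMEPA1, a membrane protein that limits TGF-beta signalling, rose by 1.70 (SE 0.05) against 1.13 (SE 0.05), from 575 and 528 CPM to 1728 and 1848 CPM. KLK15 rose by 1.38 with the drug, from 2.65 and 3.63 CPM to 9.004 and 7.58 CPM, while its change of 0.21 without the drug was not called.

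The 4 androgen-induced genes that fell were HPGD, PTGER4, ATAD2 and LIFR, by log2 changes between -1.004 and -0.31. PTGER4 also fell without the drug (-1.06), while the other 3 rose there. SGK1, a kinase induced by steroids, rose by 1.09 without the drug, and the difference of -2.19 between its responses was called (adjusted p = 0.00303 by edgeR). With the drug it went from 2.76 and 2.27 CPM to 1.68 and 0.632 CPM, a change of -1.11 that was not called (adjusted p = 0.0547 by edgeR). A fit with a replicate block called this change (adjusted p = 0.0479 by edgeR), and few counts stood behind it. It was called without the first library with both compounds (adjusted p = 0.0152 by edgeR).

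**Figure D2:**
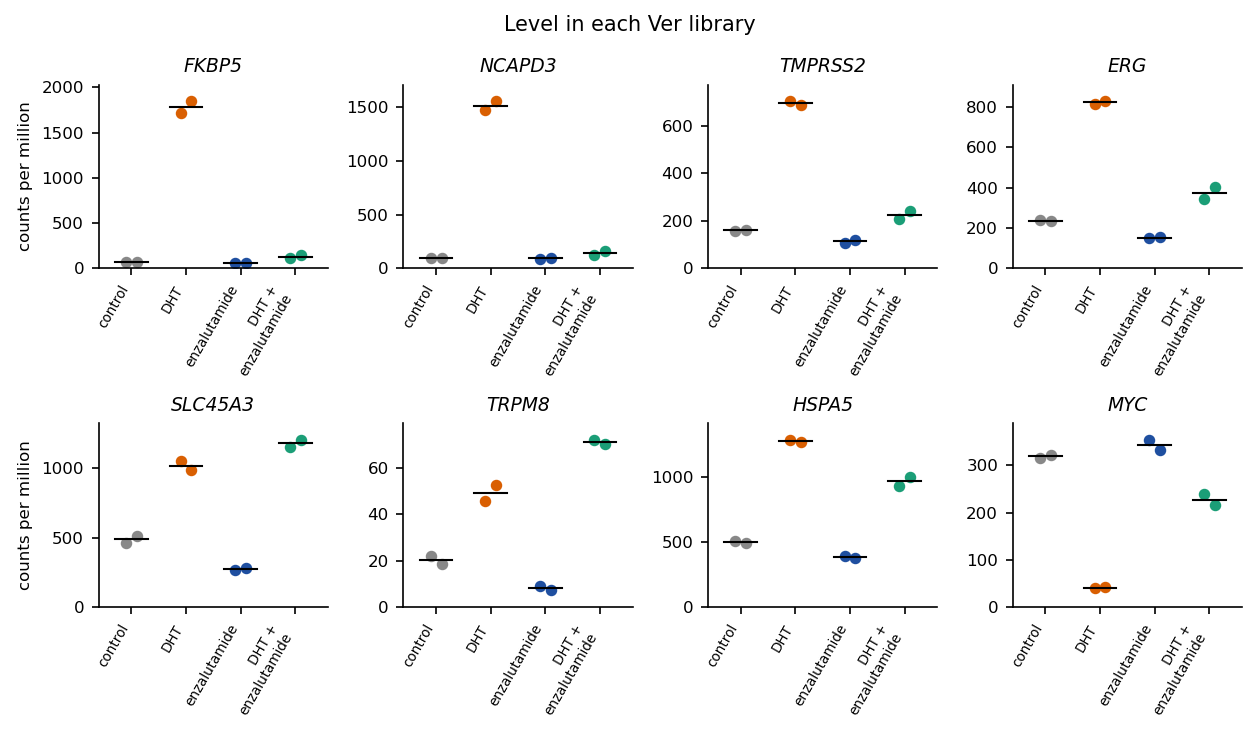
CPM of 8 genes in each of the 8 Ver libraries, 2 points a treatment with their mean as a line; every axis starts at 0. With both compounds FKBP5 and NCAPD3 rise above the enzalutamide level, to 114 and 149 CPM and to 122 and 162 CPM. They remain far below the libraries with DHT alone, while SLC45A3 and TRPM8 lie above those libraries.

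Genes known to be repressed by androgen fell under the drug less than without it. Of 21 tested members 14 fell and 1 rose, where 12.8% of all genes fell and 14.7% rose. The median log2 change was -0.92 against -1.79 without the drug. The difference was called for 12 members, and each of these had a smaller or uncalled fall with the drug. A difference called higher was seen for 9.22% of all genes. MYC, the growth-driving transcription factor, went from 353 and 333 CPM to 239 and 215 CPM. This change of -0.59 (SE 0.05) was 20.2% of the -2.93 (SE 0.06) seen without the drug, where MYC went from 315 and 323 CPM to 40.3 and 43.1 CPM. WNT2, a secreted WNT ligand, went from 80.6 and 78.2 CPM to 37.6 and 43.4 CPM, a change of -0.97 (SE 0.10) against -6.31 (SE 0.30) without the drug.

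Other repressed genes lost less of their fall. PEG10, a gene derived from a retrotransposon, went from 474 and 452 CPM to 150 and 142 CPM, a log2 change of -1.66 with the drug and -1.70 without it. DDC, which makes dopamine and serotonin from their precursors, fell from 84.7 and 76.0 CPM to 14.2 and 14.2 CPM. Its change was -2.49 (SE 0.12) against -3.65 (SE 0.15), and the difference of 1.16 was called. The sucrase-isomaltase gene SI fell by 1.44 against 2.91, and the receptor tyrosine kinase gene MET by 1.41 against 1.95, each a called difference.

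The UGT2B enzymes, which attach glucuronic acid to androgens and so inactivate them, fell with and without the drug. UGT2B15 went from 111 and 96.7 CPM to 51.5 and 48.6 CPM, a change of -1.05 (SE 0.10) against -3.78 (SE 0.15). UGT2B17 changed by -1.32 against -3.94 and UGT2B10 by -1.25 against -4.48, with called differences for all 3. UGT2B17 lost its call under the drug without the first library with both compounds (adjusted p = 0.0896 by edgeR) and without the second enzalutamide library (0.106). These genes are close paralogs, and counting could split or drop reads that fit more than 1 of them. The member that rose was CCND1, the G1 cyclin, by 0.58 with the drug and 0.56 without it.

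Genes that glucocorticoids also induce rose in smaller measure. Of 15 tested members 10 rose, where 14.7% of all genes rose, with a median of 0.52 against 1.54 without the drug. The difference was called lower for 8, where it was called lower for 7.48% of all genes. FKBP5 and ZBTB16 are also in the androgen-induced list. The metallothionein gene MT2A rose from 76.5 and 75.7 CPM to 179 and 207 CPM, by 1.34 (SE 0.07) against 1.49 without the drug, a difference that was not called. ERRFI1, a feedback inhibitor of the EGF receptor, kept 10.1% of its response, with 0.22 against 2.13, and its call was lost without the second library of either group (adjusted p = 0.572 and 0.271 by edgeR). DESeq2 gave it an adjusted p of 0.103. NR3C1, which encodes the glucocorticoid receptor, had 13.8 and 8.99 CPM with enzalutamide and 9.74 and 6.95 CPM with both compounds, overlapping ranges and no call (adjusted p = 0.127 by edgeR). It was called without the second enzalutamide library (adjusted p = 0.0259 by edgeR).

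Genes of protein folding in the endoplasmic reticulum kept most of their response to DHT under enzalutamide. Of 26 tested members 25 rose, where 14.7% of all genes rose, with a median of 1.26 against 1.56 without the drug. CREB3L1 (0.14) was the member not called. The difference between the responses was called for 13 members, lower with the drug for 12. Among all genes it was called lower for 7.48%. HSPA5 encodes BiP, the main chaperone of this compartment (chr9:125234853-125241330, minus strand). It went from 392 and 377 CPM to 935 and 1004 CPM, a change of 1.33 (SE 0.05) against 1.34 (SE 0.05) without the drug. The difference of -0.01 (SE 0.07) had an adjusted p of 0.964 by edgeR.

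Other chaperones and their helpers rose as well. The co-chaperone SDF2L1 went from 17.5 and 15.3 CPM to 68.7 and 66.6 CPM, by 2.05 (SE 0.11) against 2.104. HYOU1 rose by 1.58 against 1.74, the disulfide isomerase PDIA4 by 1.41 against 1.51, MANF by 1.84 against 1.87 and CRELD2 by 1.82 against 1.73. The differences of these 5 genes missed the threshold, with adjusted p-values between 0.0963 and 0.906 by edgeR. Some members lost more: ERN1, which splices XBP1 RNA, rose by 0.76 against 1.99, DNAJB9 by 1.94 against 2.84 and the pro-apoptotic factor DDIT3 by 1.65 against 2.41, each with a called difference.

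Promoter stretches of the folding genes are shown as a description, and no link to DHT was tested. The 250 bases before the RefSeq start of HSPA5 (GRCh38.p14, chr9:125241344-125241593, minus strand, no annotated exon) hold 1 exact match to the endoplasmic reticulum stress response element, in capitals, starting 66 bases before the start. The letters searched were CCAAT and CCACG with 9 bases of any kind between them, and looser forms were not searched.
HSPA5: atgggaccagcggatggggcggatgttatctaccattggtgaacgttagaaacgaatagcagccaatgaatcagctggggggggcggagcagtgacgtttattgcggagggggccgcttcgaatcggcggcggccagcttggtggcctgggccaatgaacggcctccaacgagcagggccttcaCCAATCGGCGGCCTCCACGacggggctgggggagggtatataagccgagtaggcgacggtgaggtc
The same element, searched on both strands, was found in the window of 7 of the 25 folding genes with a promoter in the table (28%) and of 25 of all 27305 genes (0.0916%). The list was itself made of endoplasmic reticulum stress and folding genes, so these shares are no result about DHT. A match is a description of letters only. Short windows around it, in the direction of each gene with the element in capitals, are given for 5 of the other genes to show the letters that are shared and those that vary between them.
CALR: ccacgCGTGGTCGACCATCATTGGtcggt
CANX: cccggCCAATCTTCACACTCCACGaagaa
CRELD2: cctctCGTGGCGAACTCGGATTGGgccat
PDIA6: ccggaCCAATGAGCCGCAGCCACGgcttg
XBP1: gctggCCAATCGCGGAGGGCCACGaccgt
They lie at chr19:12938379-12938407, chr5:179698773-179698801, chr22:49918549-49918577, chr2:10812848-10812876 and chr22:28800598-28800626. In CALR and CRELD2 the element is on the opposite strand, so that its reverse complement is read. The log2 changes of CALR, CANX, CRELD2, PDIA6 and XBP1 under the drug were 0.89, 0.57, 1.82, 0.84 and 0.78 in the order shown, against 0.90, 0.82, 1.73, 0.94 and 0.96 without it. Of these 5, CANX had a called difference, and all but CRELD2 rose less than the list median of 1.26 under the drug.

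Genes of secretory transport move new proteins into and out of the endoplasmic reticulum. All 32 tested members rose, where 14.7% of all genes rose, with a median of 1.01 against 1.41 without the drug. The difference was called lower for 26, where it was called lower for 7.48% of all genes. SEC61A1, the pore of the translocon, went from 262 and 247 CPM to 588 and 608 CPM, by 1.23 (SE 0.05) against 1.54. SEC11C, a subunit of signal peptidase, rose by 1.83 against 2.104 and the coat protein SEC24D by 1.71 against 2.40. The smallest rises were those of SEC23A (0.24 against 0.87) and SAR1A (0.41 against 0.85). With each of the 4 libraries left out in turn, between 31 and 32 members rose.

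Cholesterol synthesis genes rose with and without the drug. Of 24 members 21 rose, where 14.7% of all genes rose, with a median of 1.101 against 1.19. The difference was called for 8, lower for 6 and higher for 2, where 7.48% of all genes were called lower and 9.22% higher. HMGCS1, the first committed enzyme of the pathway, went from 96.5 and 95.8 CPM to 295 and 285 CPM, by 1.59 (SE 0.06) against 1.71 without the drug. The sterol sensor gene INSIG1 rose by 1.98 against 2.25, a difference that was not called.

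Of 18 fatty acid synthesis genes 13 rose, where 14.7% of all genes rose, with a median of 0.56 against 0.83 without the drug. FASN, the fatty acid synthase, went from 1015 and 934 CPM to 2570 and 2459 CPM, by 1.37 (SE 0.05) against 2.05 (SE 0.04), a called difference. The desaturase gene SCD rose by 1.14 against 0.97 and the lipid regulator SREBF1 by 1.08 against 0.92, differences that were not called. ACSL3, which activates fatty acids and is also in the androgen-induced list, rose by 1.49 against 2.94. The difference was called lower for 7 members, where it was called lower for 7.48% of all genes.

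Amino acid supply genes, many of them targets of the stress factor ATF4, also rose together. Of 22 members 20 rose, with a median of 1.16 against 1.28, where 14.7% of all genes rose and 7.48% had a difference called lower. SHMT2, a mitochondrial serine enzyme, went from 193 and 183 CPM to 454 and 508 CPM, by 1.36 (SE 0.05) against 1.61. The cystine transporter SLC7A11 rose by 1.84 against 2.17 and the neutral amino acid transporter SLC1A4 by 1.75 against 2.32. The difference was called lower for 12 members, and leaving out 1 library moved that count between 6 and 14.

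**Figure D3:**
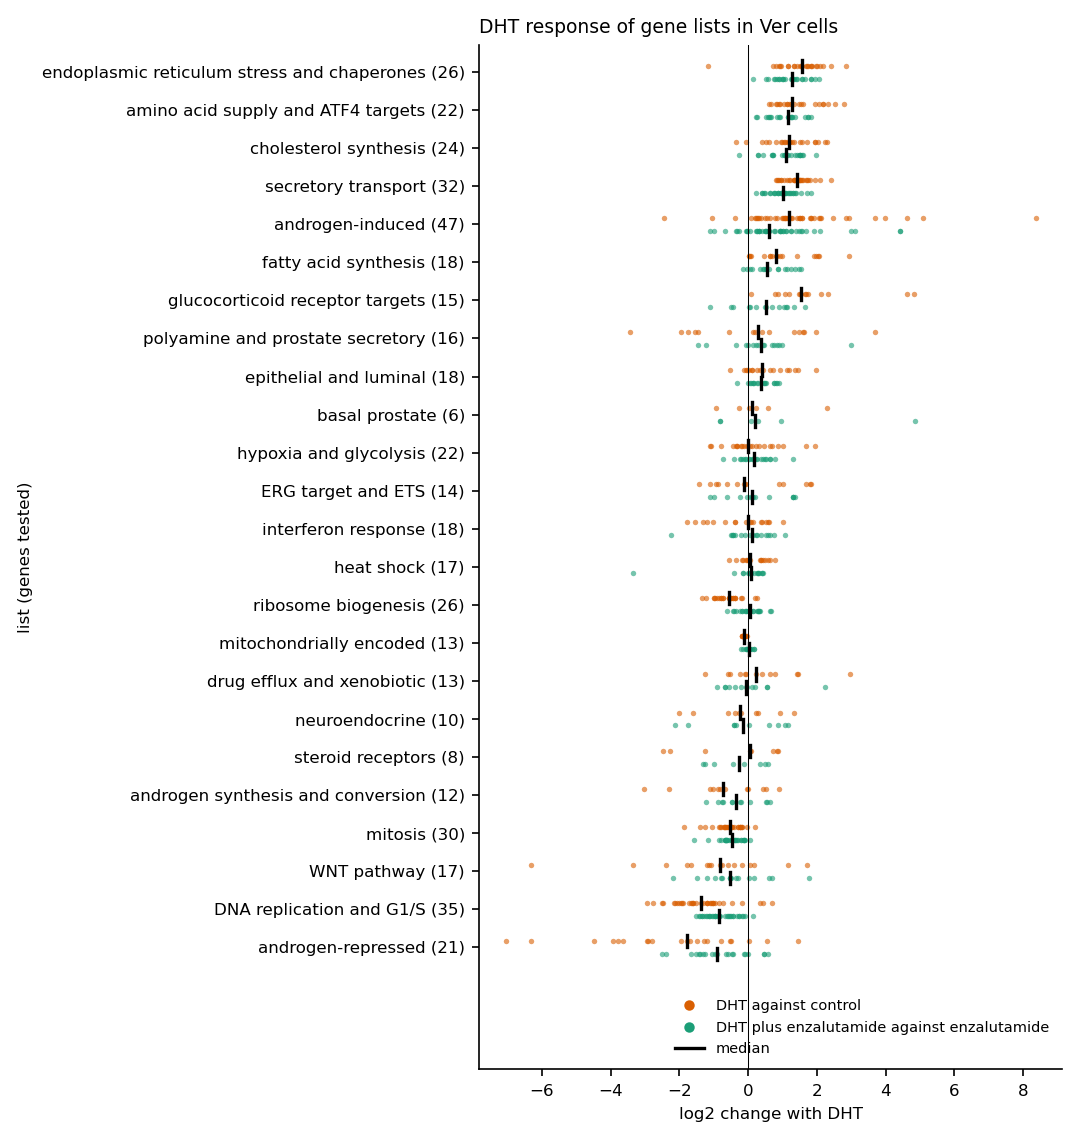
Log2 change with DHT of every tested member of 24 gene lists in Ver cells, without enzalutamide (orange) and with it (green), with list medians as black bars; the number of tested genes follows each name and lists share 13 genes. Medians for endoplasmic reticulum genes (1.56 and 1.26) and cholesterol genes (1.19 and 1.101) lie close together, and those for ribosome biogenesis lie on either side of 0 (-0.57 and 0.04).

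DNA replication genes fell. Of 35 members 25 fell under the drug, where 12.8% of all genes fell. The median was -0.86 against -1.38 without the drug, where 31 fell and 3 rose. The difference was called for 16 members, higher with the drug for 15 of them. Among all genes it was called higher for 9.22%. MCM2, a subunit of the replicative helicase (chr3:127598223-127622436, plus strand), went from 63.7 and 56.6 CPM to 25.02 and 23.8 CPM. The change was -1.30 (SE 0.11) against -2.95 (SE 0.14) without the drug. MCM4 changed by -1.24 against -2.06, MCM5 by -1.404 against -2.50 and the replication-linked ubiquitin ligase gene UHRF1 by -1.06 against -2.77.

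CDC6, which loads the helicase, was not called under the drug (-0.09), and rose without it (0.44), a called difference. CCNE1, the cyclin of S-phase entry, changed by -1.52 against -1.33, from 4.49 and 3.45 CPM to 1.36 and 1.37 CPM, a difference that was not called. The letters TTTCCCGC, a form of the E2F site, were searched on either strand of the 250 bases before the RefSeq start. They were found for 9 of the 31 replication genes in the promoter table (29%) and for 465 of all 27305 genes (1.7%). A match describes letters only. In CDT1, GINS2, LIG1, MCM7, RFC3, TYMS and UHRF1 the match lies in an exon that GENCODE 29 annotates for the same gene. No exon is annotated under the matches of PCNA, the sliding clamp of DNA polymerase (chr20:5126669-5126686, minus strand, opposite orientation), and MCM3 (chr6:52284904-52284921, minus strand), shown in capitals. These 2 genes changed by -0.68 and -0.86 under the drug.
PCNA: cagggGCGGGAAAaggcg
MCM3: gtacgTTTCCCGCcaccg
Of 30 mitosis genes 15 fell, where 12.8% of all genes fell, with a median of -0.46 against -0.54 without the drug. TOP2A, which untangles chromosomes, went from 87.9 and 85.3 CPM to 52.5 and 55.4 CPM, a log2 change of -0.68 (SE 0.08) against -0.63. MKI67, the common proliferation marker, had 45.1 and 49.9 CPM with enzalutamide and 44.5 and 43.8 CPM with both compounds, and was not called (-0.11).

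Ribosome biogenesis genes responded differently with and without the drug. Without it 24 of 26 members fell and 1 rose, with a median of -0.57. Under it 7 rose and 6 fell, with a median of 0.04, and the difference was called for 19, higher with the drug for all 19. Over all genes 14.7% rose and 12.8% fell under the drug, and the difference was called higher for 9.22%. The nucleolar protein gene NPM1 fell from 327 and 346 CPM to 218 and 225 CPM, a log2 change of -0.60 (SE 0.05) against -0.999. DKC1, which modifies ribosomal RNA, had 81.1 and 87.7 CPM and then 87.2 and 87.2 CPM, a change of 0.04 that was not called against -0.96 without the drug. RRS1 rose by 0.67 against -0.53 and LYAR by 0.65 against -1.22. Leaving out 1 library left between 3 and 6 members that rose and between 3 and 5 that fell, with 4 and 3 without the second enzalutamide library and 3 rises without the first library with both compounds. DESeq2 called 3 and 5. The called differences numbered between 18 and 19 in the same settings.

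Prostate secretory genes went both ways. ACPP, which encodes prostatic acid phosphatase, fell from 5453 and 5205 CPM to 2371 and 2205 CPM, a log2 change of -1.22 (SE 0.04) against -1.95 without the drug. FOLH1, prostate-specific membrane antigen, fell from 504 and 464 CPM to 191 and 164 CPM, a log2 change of -1.45 (SE 0.06) against -3.43. AZGP1, a secreted zinc-binding glycoprotein, rose from 1.38 and 1.36 CPM to 10.1 and 11.8 CPM. Among polyamine enzymes, spermine synthase SMS rose by 0.91 against 1.33, spermidine synthase SRM by 0.83 against 0.62 and ornithine decarboxylase ODC1 by 0.29, with a called difference of -1.31 from its rise without the drug. In the whole list of 16 tested genes 9 rose and 3 fell, where 14.7% of all genes rose and 12.8% fell.

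Of 14 tested genes linked to ERG and its ETS relatives 4 rose and 3 fell, where 14.7% of all genes rose and 12.8% fell. With 1 library left out, between 4 and 6 rose and between 2 and 4 fell. CRISP3, a secreted protein known from ERG-positive tumours, rose from 214 and 227 CPM to 510 and 577 CPM, by 1.30 (SE 0.06) against 1.69 without the drug. PEX10 rose by 1.31 against 0.90. TDRD1, another gene known from such tumours, fell by 0.61 against 1.12. Epithelial genes rose modestly, 11 of 18 with 1 fall and a median of 0.37 against 0.40. The keratin gene KRT8 rose from 397 and 374 CPM to 642 and 697 CPM, by 0.80 (SE 0.05) against 1.20. The lineage factors FOXA1 (0.05) and HOXB13 (-0.01) were not called.

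Of 12 tested steroid-converting enzymes 2 rose and 5 fell, where 14.7% of all genes rose and 12.8% fell. The falls numbered 3 without the first enzalutamide library or the second library with both compounds, and there was 1 rise without the second enzalutamide library or the first library with both compounds. AKR1C3, which makes testosterone from androstenedione, went from 89.5 and 76.9 CPM to 38.7 and 32.1 CPM, a log2 change of -1.23 (SE 0.10) against -2.31. SRD5A1, which makes DHT from testosterone, fell by 0.46 under the drug and rose by 0.42 without it, a called difference. HSD17B4 rose by 0.62 against 0.90. AKR1C family members are close paralogs, with the same limit on counting as the UGT2B genes.

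In the WNT list 8 of 17 tested genes fell and 2 rose, with a median of -0.52 against -0.81. The receptor LGR4 fell from 320 and 298 CPM to 183 and 175 CPM, a log2 change of -0.79 against -0.81, and the receptor FZD8 rose from 19.0 and 18.7 CPM to 64.6 and 65.3 CPM, by 1.78 against 1.71. Hypoxia and glycolysis genes gave 8 rises and 2 falls among 22 (1 fall without the first enzalutamide library or the second library with both compounds, and 4 with DESeq2-type size factors), and the growth factor VEGFA rose by 1.31 against 1.69. Among 10 tested neuroendocrine genes 2 rose and 2 fell, with ENO2 at -1.74 and NCAM1 at -2.12 while SYP rose by 1.17. Over all genes 14.7% rose and 12.8% fell, and the counts of several of the lists that follow are near these shares or move with single libraries. Heat shock genes gave 5 rises and 2 falls among 17. They gave 3 rises and 1 fall without the first enzalutamide library and also under DESeq2, 2 rises without the second library with both compounds, and 0 falls without the first. Interferon genes gave 3 rises and 2 falls among 18, with 1 fall under DESeq2, without either enzalutamide library or without the first library with both compounds. Among 13 xenobiotic genes 2 rose, CYP1B1 by 2.22 and ABCC1 by a change that lost its call in 9 alternatives, and 2 fell. Of 13 mitochondrially encoded genes MT-CO1 (-0.21) and MT-CO3 (-0.14) fell. MT-CO3 lost its call without the second enzalutamide library (adjusted p = 0.165 by edgeR) or the second library with both compounds (0.0589), and without the former 5 genes of the list rose. Of 8 tested steroid receptor genes 2 rose, ESRRA by 0.49 and NR4A1 by 0.57, and 2 fell, with the progesterone receptor gene PGR at -1.33. PGR lost its call without the first library with both compounds (adjusted p = 0.0743 by edgeR) or the second enzalutamide library (0.148).

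Markers of other cell types mostly had few counts, with ITGA6, CD44 and LUM as exceptions. As 14.7% of all genes rose and 12.8% fell, the few calls in lists this short are no result about the marker sets. Of 6 tested basal genes ITGA6 rose by 0.28 and the keratin gene KRT14 rose from 0.115 and 0 CPM to 2.30 and 1.26 CPM, too few counts for a fold. Of 5 tested stromal and endothelial genes VWF rose, with 1.03 and 0 CPM before and 2.83 and 1.26 CPM after DHT, and LUM fell from 73.8 and 81.1 CPM to 23.9 and 17.3 CPM. LUM changed by -1.91 (SE 0.13) under the drug and -5.73 without it. The tested immune genes CD14 (0.19) and CD8A (-0.81) were not called. ITGA6 lost its call without the first enzalutamide library (adjusted p = 0.115 by edgeR). VWF lost its call without the first library with both compounds (0.319) or the second enzalutamide library (0.432), and under DESeq2 (0.0919). CD8A was called without the second library with both compounds (0.0379 by edgeR).

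The steepest rises among genes with a mean of at least 5 CPM over the 4 libraries were those of AC011487.1, BHLHA15, TRPM8, AZGP1 and LAMP3, by log2 changes of 3.31, 3.29, 3.11, 2.98 and 2.86. BHLHA15 encodes MIST1, a factor of secretory cells, and went from 1.84 and 2.72 CPM to 16.9 and 28.7 CPM. LAMP3, a lysosomal membrane protein, went from 2.30 and 1.997 CPM to 13.6 and 17.5 CPM. The next were EFCAB12, the long noncoding RNA NKILA, the acyl-CoA-binding protein gene DBI, TMEM121B and DISP2, with log2 changes between 2.44 and 2.83. For these 10 genes the response without the drug ranged from 1.28 for TRPM8 to 4.74 for AC011487.1. The difference was called for 5 of them: higher with the drug for TRPM8 and NKILA and lower for AC011487.1, DBI and DISP2. NKILA (chr20:57710183-57712780, plus strand) overlaps PMEPA1 (chr20:57648392-57711536, minus strand), which also rose. Because counting did not use strand, NKILA cannot be fully separated from PMEPA1.

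The steepest falls were those of PPFIA2-AS1 (-4.17), CLEC3A (-4.02), NOV (-3.84), AC079414.2 (-3.32) and PTGER2 (-3.11). CLEC3A, a C-type lectin, went from 16.6 and 16.2 CPM to 0.628 and 1.37 CPM, and NOV, a matricellular protein of the CCN family, from 16.8 and 15.1 CPM to 0.628 and 1.58 CPM. The prostaglandin receptor PTGER2 went from 21.2 and 19.97 CPM to 2.30 and 2.42 CPM, a larger change than the -2.43 without the drug, although the difference was not called. PPFIA2 (-3.10), GPR85 (-2.77), AC092902.2 (-2.75), DDC (-2.49) and the matrix protein gene MGP (-2.47) followed. Counting did not use strand, so that PPFIA2-AS1 cannot be separated from PPFIA2, which it overlaps. The processed pseudogene AC079414.2 (chr16:78055824-78056927, minus strand) likewise lies within CLEC3A (chr16:78022515-78066761, plus strand).

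DHT moved 168 genes in opposite directions with and without enzalutamide. The difference was called for all 168, which choosing genes called in opposite directions made close to certain. Of these, 103 fell without the drug and rose with it, and 65 rose without it and fell with it. NPY, a neuropeptide secreted by prostate cancer cells (chr7:24284163-24291865, plus strand), went from 67.4 and 63.7 CPM with enzalutamide to 131 and 127 CPM with both compounds. Without the drug it went from 114 and 109 CPM to 39.7 and 37.0 CPM. The log2 changes were 0.98 (SE 0.07) and -1.54 (SE 0.07), and their difference was 2.52 (adjusted p = 3.02e-52 by edgeR). Libraries with the drug alone lay below the controls, and libraries with both compounds lay above them.

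The neuroendocrine factor INSM1 rose from 36.1 and 27.7 CPM to 64.6 and 50.6 CPM under the drug, by 0.86 (SE 0.12), against -0.59 (SE 0.13) without it. Smaller reversals in the same direction were those of PRUNE2 (0.64 against -0.38), the phosphatase inhibitor gene PPP1R14B (0.49 against -0.60), the decoy receptor FGFRL1 (0.51 against -0.64), the folate transporter SLC19A1 (0.74 against -0.23), the natriuretic peptide receptor NPR3 (0.78 against -0.19) and the matrix protein SPON2 (0.41 against -0.46). SPON2, for example, had 2576 and 2681 CPM with enzalutamide and 3580 and 3416 CPM with both compounds, without overlap. Further genes of this kind among those changed at least 2-fold by DHT alone were P2RY1, COL26A1, AP003025.2 and LYAR. Their rises under the drug were 0.46, 0.75, 0.64 and 0.65. COL26A1 and LYAR lost this call under DESeq2 (adjusted p = 0.0776 and 0.0714) and without the first enzalutamide library (0.115 and 0.295 by edgeR), as P2RY1 did in the latter case (0.0536).

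In the other direction, HPGD, which inactivates prostaglandins (chr4:174490177-174523154, minus strand), went from 108 and 107 CPM to 48.0 and 58.9 CPM under the drug and from 85.5 and 86.8 CPM to 169 and 176 CPM without it. The log2 changes were -1.004 (SE 0.07) and 1.005 (SE 0.07). LIFR, the receptor of leukaemia inhibitory factor, rose 4.30-fold without the drug and fell by 0.31 on the log2 scale with it, from 119 and 123 CPM to 103 and 92.1 CPM. MUM1L1 changed by -0.80 (SE 0.19) against 2.45 (SE 0.15), and AUTS2 by -0.40 against 1.34. MUM1L1 lost its call under the drug without the second enzalutamide library (adjusted p = 0.154 by edgeR), and AUTS2 without the first library with both compounds (0.185) or the first enzalutamide library (0.0931). CYP1A1, an enzyme that metabolises aromatic compounds, had 10.3 and 11.98 CPM with enzalutamide and 5.13 and 6.95 CPM with both compounds, a log2 change of -0.89 (SE 0.19) against 0.78 (SE 0.15).

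**Figure D4:**
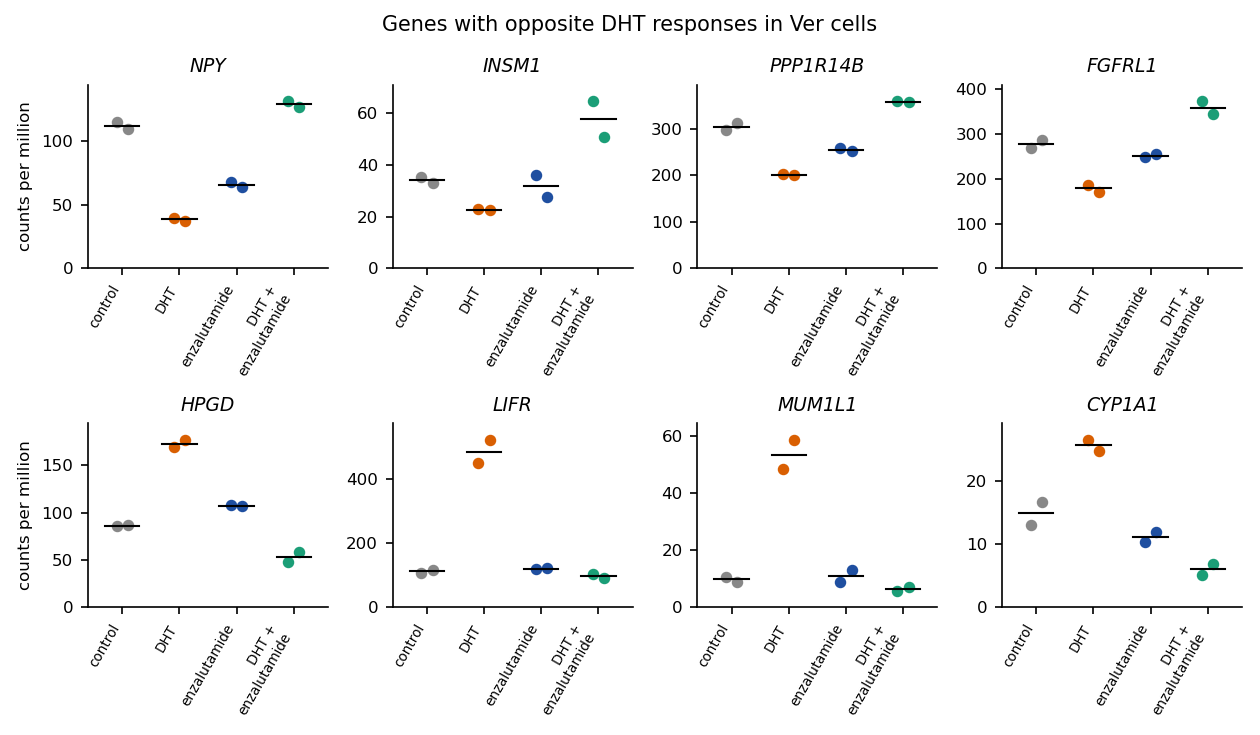
CPM in each Ver library, 2 points a treatment with their mean as a line, for 8 genes that DHT moved in opposite directions with and without enzalutamide. NPY, INSM1, PPP1R14B and FGFRL1 are lower with DHT alone and higher with both compounds than with the drug alone, and HPGD, LIFR, MUM1L1 and CYP1A1 show the reverse.

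Under the drug 584 genes rose and 570 fell that were not called without it, and for 283 of these the difference itself was called. ACSL5, which activates fatty acids (chr10:112374018-112428380, plus strand), went from 201 and 180 CPM to 87.8 and 97.2 CPM, a log2 change of -1.04 (SE 0.07). Without the drug its levels were 154 and 154 CPM before and 150 and 155 CPM after DHT. The matrix peroxidase PXDN went from 28.9 and 27.6 CPM to 62.0 and 61.4 CPM, by 1.13 (SE 0.10), against -0.08 (SE 0.10) without the drug.

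Other genes of this kind with small p-values included the integrin ITGB8 (-1.32), the plakophilin PKP1 (0.70), the cholesterol exporter ABCG1 (-1.58), SPRY4, a feedback inhibitor of growth factor signalling (1.04), and the secreted protein RELN (0.71). Their changes without the drug lay between -0.01 and 0.32. The enzalutamide level of ACSL5, ITGB8, ABCG1 and SPRY4 lay above both control libraries and that of PXDN, PKP1 and RELN below both. DHT therefore acted on all of these from different starting levels in the 2 comparisons. 

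The largest differences between the responses, by p-value, included that of PDCD4, a translation inhibitor (-0.17 against 1.66). The small fall of PDCD4 under the drug lost its call without the first library with both compounds (adjusted p = 0.757 by edgeR), without the second enzalutamide library (0.637) and under DESeq2 (0.0765). They also included the smaller falls of SYTL2, a vesicle protein (-1.17 against -2.84), and DSEL, an enzyme of dermatan sulfate synthesis (-0.88 against -3.51). TMEFF2, a membrane protein of prostate cells, rose from 142 and 145 CPM to 163 and 175 CPM under the drug, by 0.24 (SE 0.06), and fell by 1.94 without it. Its rise lost the call without the second library with both compounds (adjusted p = 0.0825 by edgeR).

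The same addition of DHT under enzalutamide in Vc cells, which share no library with the Ver comparison, changed 6966 genes (30.9%), with 3709 that rose (16.4%) and 3257 that fell (14.4%). In both lines 2473 genes rose and 1921 fell, and 35 were called in opposite directions. Across the 12397 genes with a mean of at least 5 CPM over the Ver libraries, the log2 changes in the 2 lines had a Pearson's r of 0.831 and a Spearman's rho of 0.779, a description over genes, which are not independent. The difference between the lines was called for 573 genes (2.54%), 255 higher in Ver (1.13%) and 318 lower (1.41%). Of the called genes 122 passed in Ver alone and 177 in Vc alone, 68 moved the same way with the larger change in Ver, 169 with the larger change in Vc, 35 moved in opposite directions, and 2 passed in neither line. Leaving out 1 library moved the count of 573 between 280 and 478. It was 302 without the first library with both compounds and 342 without the first enzalutamide library in Ver, and 304 and 280 without the first library with both compounds and the second enzalutamide library in Vc.

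Many androgen-induced genes rose less in Ver than in Vc. Of 47 members 15 had a lower response in Ver and 2 a higher, where 1.41% and 1.13% of all genes did. The median was 0.61 in Ver against 1.01 in Vc. FKBP5 went from 51.2 and 51.6 CPM to 228 and 253 CPM in Vc, a change of 2.23 (SE 0.08) against 1.11 (SE 0.08) in Ver. The difference was -1.11 (SE 0.12, adjusted p = 1.63e-07 by edgeR). NCAPD3 rose by 1.45 in Vc and 0.59 in Ver.

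STEAP2, a metalloreductase, rose from 1612 and 1578 CPM to 3357 and 3410 CPM in Vc and from 1945 and 2004 CPM to 2420 and 2514 CPM in Ver, by 1.08 (SE 0.04) against 0.32 (SE 0.04). MCCC2, an enzyme of leucine breakdown, rose by 1.99 in Vc and 1.14 in Ver. TPD52 rose by 1.16 and 0.48, and TMEFF2 by 1.07 and 0.24.

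TRPM8 was the opposite case, with a rise of 3.11 in Ver against 1.90 in Vc, where it went from 63.6 and 69.5 CPM to 244 and 254 CPM. The level with both compounds in Ver (71.9 and 70.4 CPM) was close to the level in Vc with enzalutamide alone. NUCB2, a calcium-binding secretory protein, rose from 53.8 and 51.0 CPM to 158 and 181 CPM in Ver, by 1.69 (SE 0.07). In Vc it rose from 98.8 and 102 CPM to 185 and 165 CPM, by 0.81. SHH, the Hedgehog ligand, fell from 37.3 and 40.0 CPM to 7.33 and 7.47 CPM in Ver and from 231 and 235 CPM to 19.0 and 23.0 CPM in Vc, a log2 change of -2.39 (SE 0.14) and -3.47 (SE 0.09). CLSTN2 fell by 0.50 in Ver against 1.66 in Vc.

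Directions differed for GPX3, an extracellular glutathione peroxidase, which fell from 256 and 228 CPM to 192 and 184 CPM in Ver and rose from 28.3 and 30.2 CPM to 52.0 and 54.1 CPM in Vc. The changes were -0.36 (SE 0.06) and 0.86 (SE 0.08). GLUD1, glutamate dehydrogenase, fell by 0.20 in Ver and rose by 0.54 in Vc. MBNL2, a splicing factor, rose by 0.29 in Ver and fell by 0.52 in Vc. For all 3 the difference was called. In Ver, GLUD1 lost its call without the first library with both compounds (adjusted p = 0.0595 by edgeR) or the first enzalutamide library (0.0601), and MBNL2 without the second library with both compounds (0.0635).

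The medians of the folding, secretory, cholesterol and replication lists had the same sign in both lines. In Vc 1 folding gene and 1 cholesterol gene fell, where none did in Ver, and 27 of the 35 replication genes fell in Vc against 25 in Ver. The medians in Vc were 1.16 for the 26 endoplasmic reticulum genes, 1.09 for the 32 secretory transport genes, 1.06 for the 24 cholesterol genes and -0.93 for the 35 replication genes, against 1.26, 1.01, 1.101 and -0.86 in Ver. Close medians do not show that each gene responded alike.

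**Figure D5:**
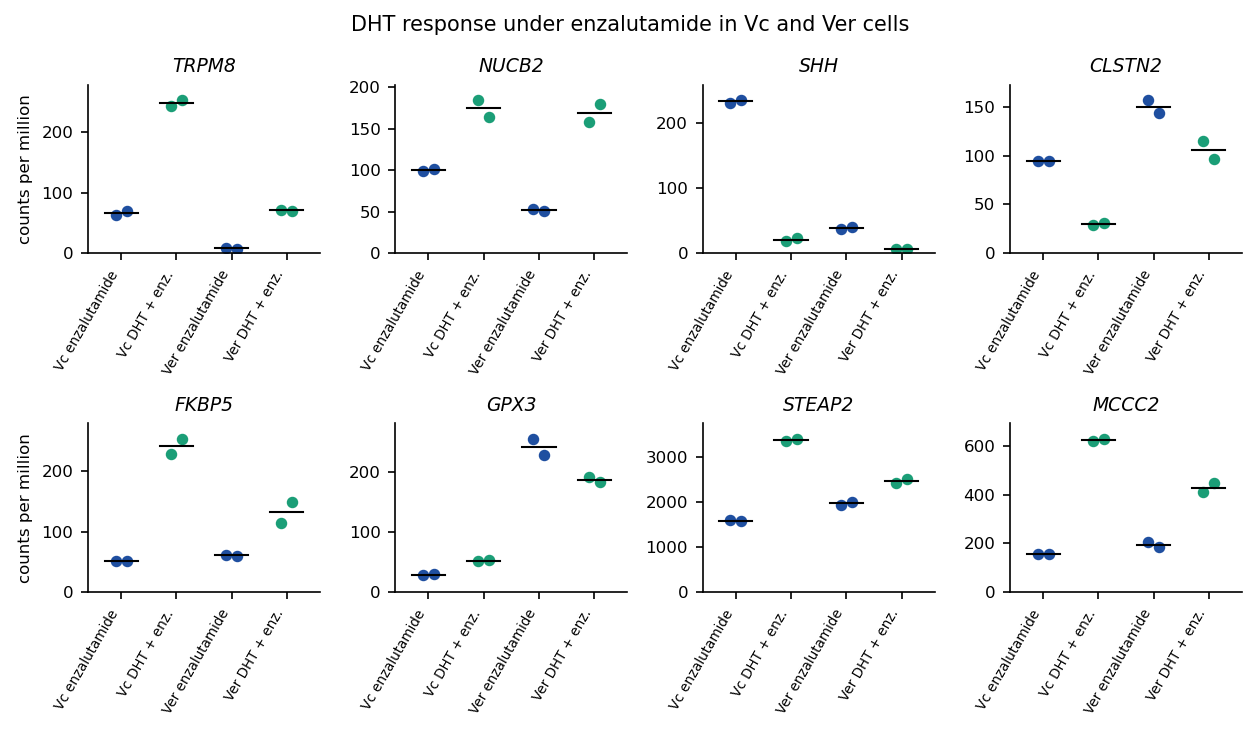
CPM of 8 genes in each library with enzalutamide alone (blue) and with both compounds (green), 2 points a group with their mean as a line, in Vc and Ver cells. TRPM8 and NUCB2 rise more in relative terms in Ver, SHH and CLSTN2 fall less there, and GPX3 rises in Vc but falls in Ver.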

How the data were processed

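RNA-seq libraries of VCaP-derived Vc and Ver cells were quantified by the submitters. Per the submitters' processing notes, the tools were HTSeq 0.11.1, FastQC 0.11.7 and Trimmomatic 0.36-5, with HISAT2 and SAMtools of unstated version, on GRCh38. Raw read counts per gene, as deposited by the authors, are whole numbers for 58302 genes in each library, counted without strand in union mode per the file names. The authors also deposited a normalized signal table, which equals the counts divided by 1 factor per library. It was used for gene symbols and as a check only. Rows that name no gene stayed out of library sizes and tests. They included reads with no annotated feature (45.0 to 50.6%) and ambiguous reads (7.09 to 8.55%).

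Counts were fitted in edgeR 4.0.16 (R 4.3.3) with TMM factors (0.919 to 1.07), its default low-count filter, robust quasi-likelihood estimation and all 8 groups of 16 libraries, which gave 8 residual degrees of freedom and a common biological variation of 6.01%. P-values were adjusted by the Benjamini-Hochberg method over 22553 genes at a threshold of 0.05. Standard errors come from the quasi-likelihood variance or, where larger, from counting error. The difference between responses was tested as an interaction in the same fit. Fits were tested on simulated data. Gene positions come from GENCODE 29, which holds 58039 of the 58302 identifiers, and promoter sequences from RefSeq on GRCh38.p14. Tables and figures used Python 3.11.15, pandas 2.3.3 and matplotlib 3.10.9. Alternatives were DESeq2 1.42.0, other size factors, filters and groups in the fit, a replicate block, and leaving out each library.

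The comparison, its 26 gene lists (13 genes are in more than 1) and the genes named were chosen with earlier results of these data known. Genes were named by a fixed panel, by the 10 largest rises and falls among genes with a mean of at least 5 CPM, by the 4 smallest p-values in each list, by the highest and lowest ratios of the responses, and by the smallest p-values for opposite, drug-only and differing responses. Other list members were named after their values were seen, as were the promoter motifs. Some genes of the panel and of these rules are not reported here.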

Additional observations from a re-analysis of the deposited data

Results flagged for a closer look

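For 36 named genes the DHT response under enzalutamide differed between Ver and Vc by edgeR's interaction test. Values are log2 differences, Ver minus Vc, with 2 libraries in each of 4 groups. The line and the label suffix cannot be told apart in them.

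Lower responses in Ver included those of FKBP5 (-1.11), GPX3 (-1.22), NCAPD3 (-0.86), MCCC2 (-0.84), TMEFF2 (-0.83), SI (-0.80), DSEL (-0.77), STEAP2 (-0.76), GLUD1 (-0.73), TPD52 (-0.68) and LIFR (-0.50). Smaller differences in this direction were those of PSAT1 (-0.30), FOLH1 (-0.30), SMS (-0.28), PMEPA1 (-0.28) and SPDEF (-0.27). For SI, DSEL and FOLH1, which fell in Ver, a negative value is a deeper fall. GPX3, GLUD1 and LIFR fell in Ver and rose in Vc.

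Higher responses in Ver included those of TRPM8 (1.21), CLSTN2 (1.16), SHH (1.09), NUCB2 (0.89), MBNL2 (0.81), DBI (0.79), TTC39C (0.67), UGT2B15 (0.60) and SLC19A1 (0.51). Smaller ones were those of HPGD (0.40), PPP1R14B (0.40), MT2A (0.39), NPR3 (0.36), NPY (0.32), FASN (0.32), ALDOA (0.30), MYC (0.28), SPON2 (0.25) and ACPP (0.25). For CLSTN2, SHH, UGT2B15, HPGD, MYC and ACPP, which fell in both lines, a positive value is a smaller fall in Ver. MBNL2 rose in Ver and fell in Vc, and TTC39C fell in Vc and was not called in Ver. The pseudogene AC079414.2 had 5.42, but both Vc libraries with both compounds were at 0 for it, so that this value depends on the prior count.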

How the results depend on the processing

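The count of 6209 genes changed by DHT under enzalutamide was between 4666 and 5059 when 1 library was left out, 4884 with DESeq2, 6175 with DESeq2-type size factors, 5629 without a filter, 5711 at a mean of at least 5 CPM, 6102 without robust estimation and 5972 from the groups of the contrast alone. Replicate numbers did not pair the samples: deviations of same-numbered Ver libraries correlated between -0.0487 and 0.0469, and the fit with a replicate block called 6208 genes.

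The Ver minus Vc difference moved most. It was called for between 280 and 478 genes with 1 library left out, higher for between 128 and 220 and lower for between 152 and 287, and DESeq2 called 401, with 151 higher. The replicate block gave 610. The median share of the response kept, 45.3% for genes that DHT alone changed at least 2-fold, was between 41.1 and 48.7% with 1 library left out, and 39.5% for genes changed at least 4-fold. The cause was not tested.

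Of 171 named genes 21 lost and 5 gained their call under at least 1 alternative, without a change of direction. Depth limits genes with few counts, such as STEAP4, CLEC3A and KRT14, and 2 libraries a group limit all tests.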
